A study of Homo sapiens with 6 samples.

Results

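The SLC25 genes encode the mitochondrial carrier family, and they were examined in cells labelled HepG2, a line from a human liver tumour, after exposure to saikosaponin A, a triterpenoid saponin of Bupleurum root. Rows of the deposited gene table whose symbol is SLC25A followed by digits were taken, which gave 44 of 29435 genes. Of these, 36 had 3 or more libraries at 1 FPKM (fragments scaled to transcript length and library size) or higher and were tested, and 8 had not. Relatives that carry other symbols, such as UCP2, MTCH1 and MTCH2, are not counted among the 44. The DMSO group received the solvent for 4 h and the other group saikosaponin A at 20 µM for 4 h, in the same serum-supplemented medium, with 3 libraries each. Nothing in the labels ties the replicates to separate cultures. The p-values below therefore cover the spread among 3 libraries per group, and that spread may be technical. The only comparison of the design, saikosaponin A against DMSO, asks which carrier transcripts differed after this short exposure.

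Mitochondrial carriers sit in the inner mitochondrial membrane, which is impermeable to most solutes, and each exchanges or imports a narrow set of metabolites by alternating between a cytosol-facing and a matrix-facing state. Together they bring in ADP, phosphate, amino acids, cofactors and iron and let out ATP, citrate and other products, so they link the citric acid cycle, oxidative phosphorylation, fatty acid and haem synthesis to the rest of the cell. In liver cells the citrate, aspartate/glutamate and ornithine carriers serve lipid synthesis, the malate-aspartate shuttle and the urea cycle.

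Library totals were 57768359 to 74912492 counts, and SLC25 genes took 0.297, 0.306 and 0.27% of them in DMSO replicates 1 to 3 and 0.310, 0.359 and 0.352% with saikosaponin A. DMSO replicate 3 and saikosaponin A replicate 1 stood apart from the other 4 libraries: mitochondrially encoded genes took 14.9% and 18.8% of their counts, against 6.19 to 8.28% elsewhere. All 11 carriers called higher below and all 5 called lower had the same direction between those 2 libraries alone. This was fixed in advance, since the groups of these carriers did not overlap. The fit to the other 4 libraries called 12 carriers higher and 7 lower (33.3% and 34.5% of all genes) and kept these 11 and 5. The chi-square per gene between counts was 15.5 for DMSO replicates 1 and 2 and 15.2 for saikosaponin A replicates 2 and 3. All other pairs of libraries had 329 to 765. The p-values of that fit therefore cover the spread within 2 close pairs. Most defining genes of hepatocytes were near 0 or had no row: of 15 markers listed, 10 had a row. Of those 10, 9 lay below 0.1 FPKM, the exception being the urea cycle gene CPS1 at 136 to 177 FPKM. Their summed level was 1824 to 2194 CPM (counts scaled to a common library total; single genes below are relative to the TMM-scaled library size) in DMSO and 1771 to 1985 CPM with saikosaponin A. Of 5 epithelial markers, KRT8 and KRT18 were above 1 FPKM, and the other 3, CDH1, EPCAM and KRT19, had means below 0.1 FPKM. Of 5 fibroblast markers with a row, 4 were above 1 FPKM. None of 4 endothelial markers was, and neither of the 2 keratinocyte markers with a row was. CD68, at 0.851 to 4.29 FPKM, was the 1 leukocyte marker with a row. Summed levels in DMSO and with saikosaponin A were 293 to 362 and 236 to 279.6 CPM for fibroblast markers, 6.16 to 6.41 and 3.41 to 3.51 CPM for endothelial ones, and 2838 to 3653 and 3420 to 4253 CPM for epithelial ones. The part of these levels in the results was not tested.

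The 4 tested carriers of ADP/ATP and phosphate were higher after saikosaponin A, as were the citrate carrier SLC25A1, the 2-oxoglutarate carrier SLC25A11, the acylcarnitine carrier SLC25A20 and 1 of the 2 glutathione carriers, SLC25A39, whereas the basic amino acid, pyrimidine nucleotide and branched-chain amino acid carriers SLC25A29, SLC25A36 and SLC25A44 and the iron importer SLC25A37 were lower. By edgeR's quasi-likelihood test at an adjusted p below 0.05, 11 of 36 tested carriers rose and 5 fell, against 25.9% and 27.9% of the 11427 genes tested, so the family's shares of 30.6% and 13.9% were close to the background upward and below it downward. In CPM, the groups did not overlap for 11 carriers that were higher and 8 that were lower, against 30.4% and 32.4% of all tested genes. The median log2 fold change was 0.09 over the 36 carriers and 0.03 over all tested genes. In bulk RNA, fewer cells of a type and less RNA per cell cannot be told apart. The called values ran from -0.68 to 0.66, that is, from 1.60-fold lower to 1.58-fold higher. The split depended on the scale: 3 rose and 8 fell with total counts in place of TMM (background 11.1% and 33.9%), 2 and 7 with limma on log2(FPKM + 1) (8.08% and 32.4%), and 0 and 3 with limma on log2(TPM + 1), where 0.394% and 20.8% of all genes were called and 0 carriers were higher at an unadjusted p below 0.05. The median log2 fold change of all genes was -0.12, -0.11 and -0.31 on those 3 scales. Relative to the median of all genes, SLC25A5 stood at 0.61 in the edgeR fit and 0.58 on the TPM scale, and SLC25A29 at -0.70 and -0.53. Corrected for the longest transcript, 2 of the 11 rises and 0 of the 5 falls stayed called (background 13.3% and 19.4%). SLC25A5 was then at 0.003 (edgeR adjusted p = 0.975). Corrected for the median coding length, 8 and 4 stayed called (background 19.9% and 23.5%). With quantile-normalised FPKM, SLC25A5 was at 0.05 (limma adjusted p = 0.551).

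**Figure D1:**
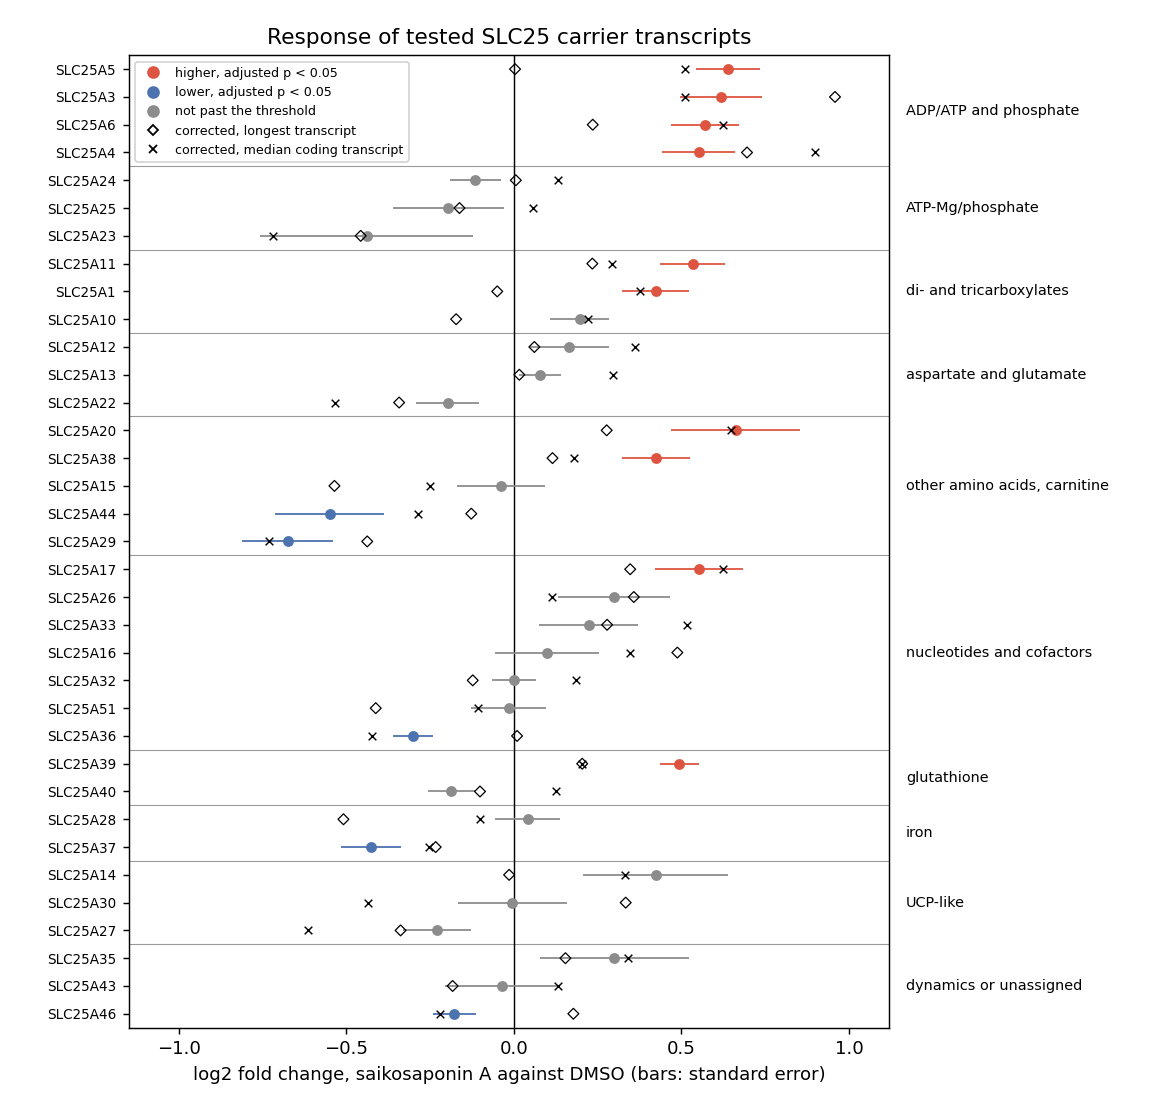
log2 fold change (saikosaponin A minus DMSO, TMM-scaled counts) of 35 of the tested SLC25 carriers, ordered by substrate group, with bars of 1 SE; colour marks carriers called higher, called lower or not called by edgeR, open diamonds the value corrected for the longest transcript and crosses that for the median coding transcript. All 4 ADP/ATP and phosphate carriers lie between 0.55 and 0.64, and no ATP-Mg/phosphate or aspartate/glutamate carrier was called.

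By level, the family was dominated by the ADP/ATP translocases. SLC25A6 stood at 271 ± 6.33 FPKM (SD, n = 3) in DMSO and SLC25A5 at 201 ± 30.4 FPKM, followed by the citrate carrier SLC25A1 at 60.8 ± 11.1 FPKM, the phosphate carrier SLC25A3 at 52.7 ± 9.51 FPKM and the glutathione importer SLC25A39 at 49.9 ± 2.53 FPKM. In FPKM, spread over DMSO libraries was wider for SLC25A5 than for SLC25A6, with DMSO replicate 3 low for the former. In CPM the order was reversed, at 339 ± 24.1 CPM for SLC25A5 and 460 ± 45.6 CPM for SLC25A6 (SD, n = 3). The FPKM of SLC25A1, SLC25A3 and SLC25A39 overlapped in range. The 3 translocases together took 54.6, 54.6 and 56.4% of the summed SLC25 FPKM in DMSO and 61.7, 60.2 and 60.1% with saikosaponin A, groups that did not overlap. FPKM divides by the length the authors used. SLC25A3, with the highest mean CPM of the family in DMSO, had a length implied by its count and FPKM of 10264 nt. Its longest annotated transcript was 6087 nt. Such an excess was general among the carriers, for instance 4831 against 1586 nt for SLC25A15, and SLC25A6 went the other way, at 1792 against 2062 nt. The untested members were SLC25A45 (0.530 to 1.05 FPKM), SLC25A21 (0.654 to 1.10 FPKM), SLC25A42 (0.378 to 0.502 FPKM), and SLC25A18, SLC25A34, SLC25A41, SLC25A52 and SLC25A53, all at or below 0.25 FPKM. SLC25A31, a testis-type translocase, and SLC25A2, SLC25A47 and SLC25A48 were not among the 44 rows and so were not analysed.

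**Figure D2:**
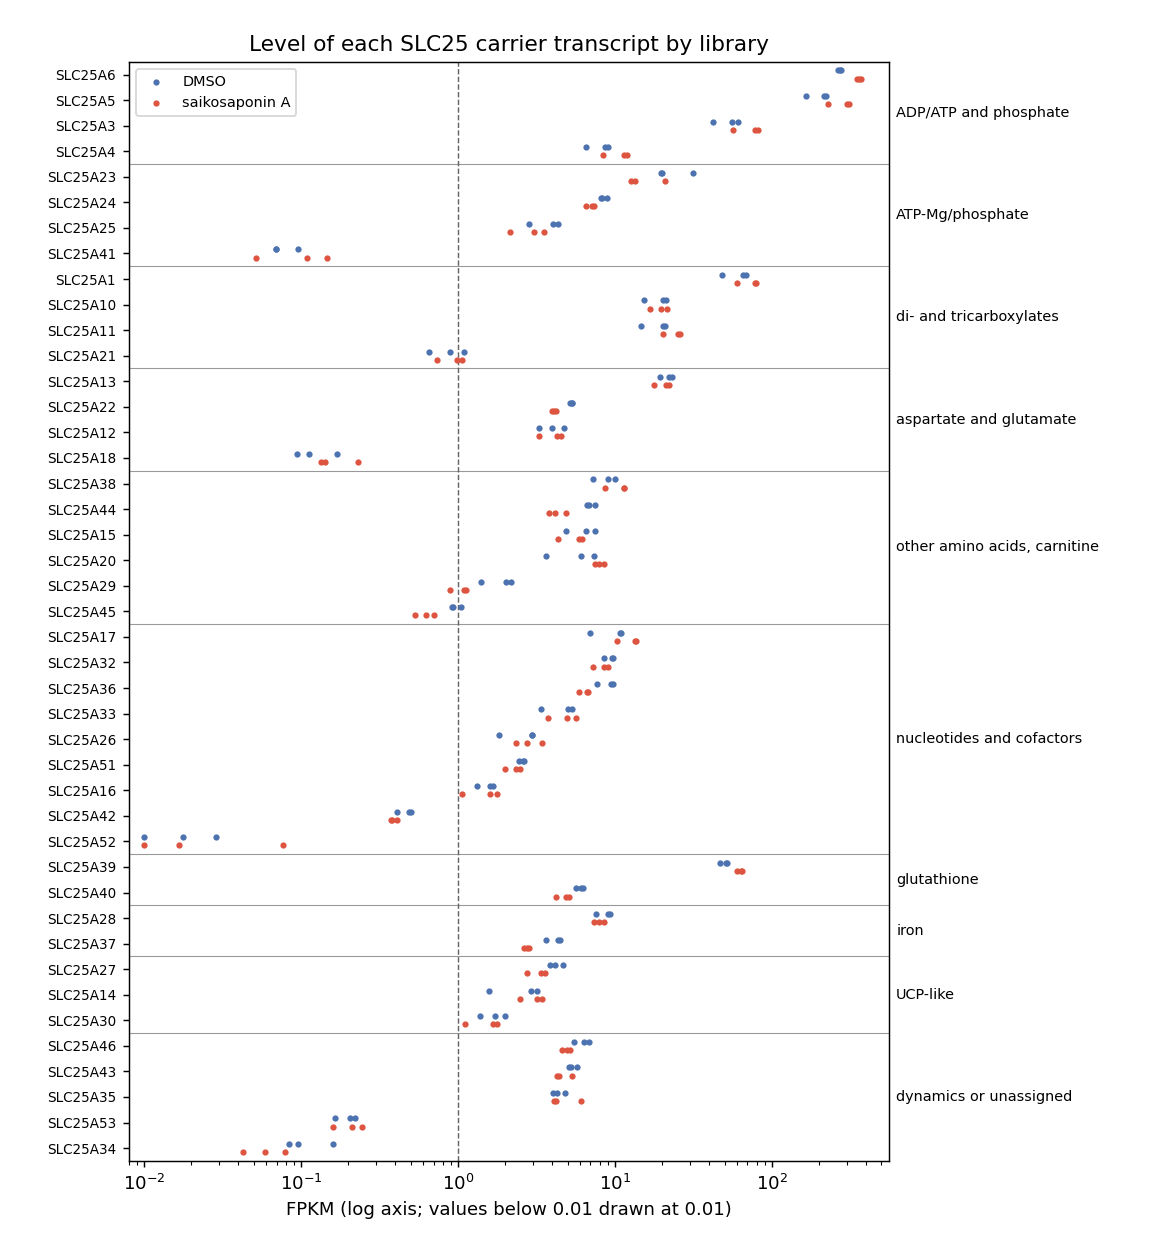
Level of 43 SLC25 genes in the 6 libraries (FPKM, log axis; blue DMSO, red saikosaponin A; values below 0.01 drawn at 0.01), grouped by substrate. The dashed line marks 1 FPKM, and SLC25A6 and SLC25A5 are the 2 highest in every library.

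Several pairs with the same substrate had count ratios that did not overlap between groups, among them SLC25A39 and SLC25A40, with a larger difference than the pair printed. The upstream sequences of 3 carriers are printed here: SLC25A5, an abundant carrier that rose, and of those pairs SLC25A33, not itself called, and SLC25A36. They are the 250 bases before the RefSeq start on GRCh38.p14, plus strand: chrX:119468194-119468443 for SLC25A5, chr1:9539215-9539464 for SLC25A33 and chr3:140941586-140941835 for SLC25A36. Capitals mark matches to the cAMP response element core TGACGTCA and the E-box CACGTG, searched on both strands.
SLC25A5: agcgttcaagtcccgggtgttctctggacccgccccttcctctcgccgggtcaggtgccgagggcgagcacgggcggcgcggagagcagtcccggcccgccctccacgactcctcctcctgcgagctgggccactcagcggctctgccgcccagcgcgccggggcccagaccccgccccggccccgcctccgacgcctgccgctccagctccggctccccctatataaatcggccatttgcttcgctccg
SLC25A33: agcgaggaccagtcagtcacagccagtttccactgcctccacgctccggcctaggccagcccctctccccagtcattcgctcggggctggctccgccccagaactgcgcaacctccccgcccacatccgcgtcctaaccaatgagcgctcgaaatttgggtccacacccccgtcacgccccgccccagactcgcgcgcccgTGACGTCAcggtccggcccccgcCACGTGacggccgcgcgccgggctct
SLC25A36: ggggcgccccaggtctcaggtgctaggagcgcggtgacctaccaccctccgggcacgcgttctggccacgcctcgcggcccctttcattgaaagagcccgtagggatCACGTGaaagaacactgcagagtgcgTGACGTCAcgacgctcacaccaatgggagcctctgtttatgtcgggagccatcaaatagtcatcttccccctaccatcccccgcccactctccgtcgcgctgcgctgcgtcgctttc

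Of 44 members, 37 had such a window (46 windows). In the SLC25A33 window the cAMP response element core began at base -49 and the E-box at -26, and in that of SLC25A36 at -117 and -143, counted from the transcription start. None of the 4 motifs searched, which also included GABPA ACTTCCGG and NRF1 core CGCATGCG, was in the window of SLC25A5 or in that of SLC25A3, which is not printed. The cAMP response element core was in windows of 3 carriers (SLC25A25, SLC25A33 and SLC25A36), 6.52% of windows against 1.65% of 35115 promoter windows, and the E-box in 7, 15.2% against 6.34%. SLC25A33 and SLC25A36, the pair printed, were the only carriers with both, so the pair shown is not typical of the family. GABPA was in 4 (SLC25A17, SLC25A24, SLC25A26 and SLC25A46), 8.70% against 3.42%, and the NRF1 core in none, against 1.73%. These are counts of letters in short windows and say nothing about binding.

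All 4 tested carriers of ADP/ATP and phosphate rose by edgeR, with a median log2 fold change of 0.59. With quantile-normalised FPKM only SLC25A4 of these 4 was called, at 0.48 (limma adjusted p = 0.00898); SLC25A6 had -0.04 (limma adjusted p = 0.818), SLC25A5 0.05 (limma adjusted p = 0.551) and SLC25A3 0.25 (limma adjusted p = 0.0793). On GRCh38 they lie at chrX:119468422-119471396 (SLC25A5), chrX:1386152-1392113 (SLC25A6), chr4:185143266-185150382 (SLC25A4) and chr12:98593591-98606379 (SLC25A3). SLC25A5, the translocase of proliferating cells, stood at 348, 358 and 312 CPM in DMSO and 467, 563 and 554 CPM with saikosaponin A. All 3 treated libraries lay above all 3 controls, with saikosaponin A replicate 1 and DMSO replicate 3 each the lowest of their groups; SLC25A5 rose 1.56-fold (log2 fold change 0.64 ± 0.10, SE, edgeR adjusted p = 0.00172). SLC25A6, the related translocase on the pseudoautosomal part of X, stood at 425, 444 and 512 CPM in DMSO and 757, 651 and 642 CPM with saikosaponin A. Here the 2 libraries of high mitochondrial share were the highest of their groups instead, and the groups again did not overlap (log2 fold change 0.57 ± 0.10, SE, edgeR adjusted p = 0.00352). SLC25A4, the muscle and heart translocase, was less abundant per length, with 8.10 ± 1.34 FPKM in DMSO; its counts gave 45.4, 43.3 and 38.2 CPM in DMSO and 53.7, 67.2 and 65.1 CPM with saikosaponin A. The groups did not overlap and the gene rose 1.47-fold (log2 fold change 0.55 ± 0.11, SE, edgeR adjusted p = 0.00543). SLC25A3, which brings phosphate and copper into the matrix, stood at 513, 558 and 452 CPM in DMSO and 662, 848 and 826 CPM with saikosaponin A. It rose 1.53-fold with no overlap between groups (log2 fold change 0.62 ± 0.12, SE, edgeR adjusted p = 0.00534).

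Among the 3 translocases, SLC25A6 made up 54.0, 54.5 and 61.3% of the summed FPKM in DMSO and 61.0, 52.7 and 52.8% with saikosaponin A, and SLC25A4 1.39 to 1.86%. The high shares of SLC25A6 were those of DMSO replicate 3 and saikosaponin A replicate 1, the 2 libraries of high mitochondrial share. Likewise, the count ratio of SLC25A5 to SLC25A6 was 0.609 and 0.617 in those libraries and 0.806 to 0.865 in the other 4. Reads of SLC25A5 could have come from near-identical copies: its 5 pseudogene entries held 0.0474 to 0.0855% of the counts of SLC25A5 plus those entries, and the handling of shared reads was not stated. SLC25A5 also lies over the antisense gene SLC25A5-AS1, and SLC25A3 over the small nucleolar RNA SNORA53. Without the strand setting, reads from opposite-strand neighbours cannot be told apart; 24 of the 44 genes overlap one.

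No carrier of ATP-Mg and phosphate, whose exchange is set by cytosolic calcium, was called: 0 of 3 tested members passed by edgeR or DESeq2, and 0 had an unadjusted p below 0.05. SLC25A24, the member of smallest p, stood at 57.5, 62.5 and 67.5 CPM in DMSO and 58.3, 56.5 and 58.4 CPM with saikosaponin A; the groups overlapped (log2 fold change -0.11 ± 0.08, SE, edgeR adjusted p = 0.232). SLC25A23 was chosen for description after its values were seen, at 99.4, 101 and 186 CPM in DMSO and 134, 77.2 and 73.8 CPM with saikosaponin A. DMSO replicate 3 and saikosaponin A replicate 1 were the highest of their groups, and the groups overlapped (log2 fold change -0.44 ± 0.32, SE, edgeR adjusted p = 0.275). In the 4 other libraries the log2 fold change was -0.44 (edgeR adjusted p = 6.48e-05), and between those 2 libraries alone it was -0.47. That p-value covers only the spread within the close pairs described above, DMSO replicates 1 and 2 and saikosaponin A replicates 2 and 3. SLC25A25 had -0.20 ± 0.17 (SE) and was not called.

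Of the tested di- and tricarboxylate carriers, 2 of 3 rose. SLC25A11, which swaps 2-oxoglutarate for malate in the malate-aspartate shuttle, stood at 53.5, 51.6 and 43.6 CPM in DMSO and 66.4, 75.3 and 73.7 CPM with saikosaponin A, and the treated libraries were all above the controls. It rose 1.45-fold (log2 fold change 0.53 ± 0.10, SE, edgeR adjusted p = 0.00374). SLC25A1, which exports citrate for fatty acid and sterol synthesis, stood at 136, 143 and 116 CPM in DMSO and 159, 186 and 184 CPM with saikosaponin A and rose 1.34-fold with no overlap (log2 fold change 0.42 ± 0.10, SE, edgeR adjusted p = 0.0110; chosen after its values were seen). With quantile-normalised FPKM it was not called, at 0.04 (limma adjusted p = 0.670). The dicarboxylate carrier SLC25A10, which exchanges malate or succinate for phosphate, had 0.20 ± 0.09 (SE, edgeR adjusted p = 0.0983). SLC25A11 overlaps RNF167 on the other strand.

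None of the 3 tested aspartate and glutamate carriers passed by edgeR or DESeq2, nor at an unadjusted p below 0.05 (0 of 3), and their median log2 fold change was 0.08. SLC25A22, a glutamate carrier with the smallest p, stood at 25.4, 25.4 and 28.9 CPM in DMSO and 25.1, 21.4 and 22.99 CPM with saikosaponin A, and every treated library was below every control although the change was not called (log2 fold change -0.20 ± 0.10, SE, edgeR adjusted p = 0.117). SLC25A12 and SLC25A13, the calcium-binding aspartate/glutamate exchangers of the malate-aspartate shuttle, had 0.17 and 0.08, with SLC25A13 the more abundant at 21.6 ± 1.92 FPKM in DMSO against 4.01 ± 0.756 FPKM for SLC25A12.

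The other amino acid carriers and the carnitine carrier moved in both directions: 2 of 5 rose and 2 fell. SLC25A20, which exchanges acylcarnitine for carnitine in fatty acid oxidation, stood at 12.1, 14.5 and 8.37 CPM in DMSO and 18.7, 17.5 and 19.1 CPM with saikosaponin A; the 3 treated libraries were close together, all above the controls, and DMSO replicate 3 was the lowest. It rose 1.58-fold (log2 fold change 0.66 ± 0.19, SE, edgeR adjusted p = 0.0237), a call lost without DMSO replicate 1, saikosaponin A replicate 2 or replicate 3 (edgeR adjusted p = 0.0651, 0.0546 and 0.0706). SLC25A38, a glycine carrier of haem synthesis, rose by 0.42 ± 0.10 (SE, edgeR adjusted p = 0.0116). SLC25A29, a carrier of basic amino acids, stood at 16.9, 15.8 and 12.7 CPM in DMSO and 8.80, 9.55 and 10.02 CPM with saikosaponin A; all treated libraries were below all controls. It fell 1.60-fold (log2 fold change -0.68 ± 0.14, SE, edgeR adjusted p = 0.00589). SLC25A44, a branched-chain amino acid carrier, stood at 50.5, 52.1 and 66.1 CPM in DMSO and 47.04, 35.4 and 32.8 CPM with saikosaponin A, the highest value being DMSO replicate 3, and fell 1.46-fold (log2 fold change -0.55 ± 0.16, SE, edgeR adjusted p = 0.0258; chosen after its values were seen). Without DMSO replicate 3, saikosaponin A replicate 2 or replicate 3 that call was lost (edgeR adjusted p = 0.0652, 0.0885 and 0.0847). The ornithine carrier SLC25A15, of the urea cycle, had -0.04 ± 0.13 (SE).

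Nucleotide and cofactor carriers gave 2 rises and 1 fall among 8. SLC25A36, a pyrimidine nucleotide carrier, stood at 104, 102 and 95.7 CPM in DMSO and 81.2, 80.8 and 82.9 CPM with saikosaponin A; groups were narrow and apart. It fell 1.23-fold (log2 fold change -0.30 ± 0.06, SE, edgeR adjusted p = 0.00535). Its paralog SLC25A33 had 0.22 ± 0.15 (SE, edgeR adjusted p = 0.240). SLC25A17, a peroxisomal carrier of coenzymes, rose 1.47-fold (0.55 ± 0.13, SE, edgeR adjusted p = 0.0112). The S-adenosylmethionine carrier SLC25A26, SLC25A16, the folate and flavin carrier SLC25A32 and the NAD carrier SLC25A51 had 0.30, 0.10, 0.001 and -0.02 and were not called.

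The glutathione importer SLC25A39 was the carrier with the smallest p. It stood at 187, 189 and 200.3 CPM in DMSO and 279, 266 and 267 CPM with saikosaponin A; all 3 treated libraries were above the 3 controls and close to one another. It rose 1.41-fold (log2 fold change 0.49 ± 0.06, SE, edgeR adjusted p = 0.000692), but was not called with quantile-normalised FPKM, at 0.15 (limma adjusted p = 0.130), nor after either length correction given below. Its paralog SLC25A40 was not called by edgeR, at 33.4, 31.99 and 34.8 CPM in DMSO and 28.5, 28.9 and 30.6 CPM with saikosaponin A (log2 fold change -0.19 ± 0.07, SE, edgeR adjusted p = 0.0562; chosen after its values were seen); its treated libraries were all below the controls. DESeq2 called SLC25A40 lower, at -0.19 (DESeq2 adjusted p = 0.0306), as did limma on log2(FPKM + 1) (limma adjusted p = 0.0335) and edgeR with total counts (edgeR adjusted p = 0.0206), a mean FPKM of at least 5 or the mitochondrial share as a term (edgeR adjusted p = 0.0195). Other settings did not call SLC25A40: the replicate number as a block (edgeR adjusted p = 0.127) and no expression filter (edgeR adjusted p = 0.309). Nor did log2(TPM + 1) (limma adjusted p = 0.154) or quantile-normalised FPKM (limma adjusted p = 0.222). Corrected for the longest transcript it was at -0.10 (edgeR adjusted p = 0.301). With the median coding length it was at 0.13 (edgeR adjusted p = 0.187). The iron importer SLC25A37, mitoferrin-1, stood at 37.4, 35.9 and 35.4 CPM in DMSO and 30.1, 24.6 and 26.1 CPM with saikosaponin A, the treated libraries all lower. It fell 1.35-fold (log2 fold change -0.43 ± 0.09, SE, edgeR adjusted p = 0.00686). SLC25A28, mitoferrin-2, had 0.04 ± 0.10 (SE, edgeR adjusted p = 0.739).

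Count ratios within 6 pairs that share a substrate, also chosen after values were seen, do not depend on library scaling. SLC25A39 to SLC25A40 was 5.59 to 5.92 in DMSO and 8.73 to 9.77 with saikosaponin A, a difference of 0.68 on the log2 scale. SLC25A28 to SLC25A37 went from 0.475–0.479 to 0.61–0.745 (difference 0.47), and SLC25A33 to SLC25A36 from 0.166–0.209 to 0.234–0.314 (0.52). SLC25A12 to SLC25A13 and SLC25A5 to SLC25A6 overlapped between groups (0.09 and 0.07). SLC25A5 to SLC25A4 differed by only 0.09 and yet did not overlap, at 7.66 to 8.26 in DMSO and 8.37 to 8.70 with saikosaponin A. By an exact 2-sided permutation test the first 3 ratios and SLC25A5 to SLC25A4 reached p = 0.1, the smallest that 3 against 3 libraries allows, 0.15 after Benjamini-Hochberg adjustment over the 6 pairs. The ratios compare counts, so a ratio is not a ratio of molecules where lengths differ. Corrected for the longest transcript, the log2 fold changes of SLC25A28 and SLC25A37 were -0.51 (edgeR adjusted p = 0.0129) and -0.23 (edgeR adjusted p = 0.0748), which turns their difference to -0.28, against 0.15 with the median coding length. With the same 2 corrections the difference of SLC25A39 and SLC25A40 was 0.31 and 0.08, and that of SLC25A33 and SLC25A36 0.27 and 0.94.

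**Figure D3:**
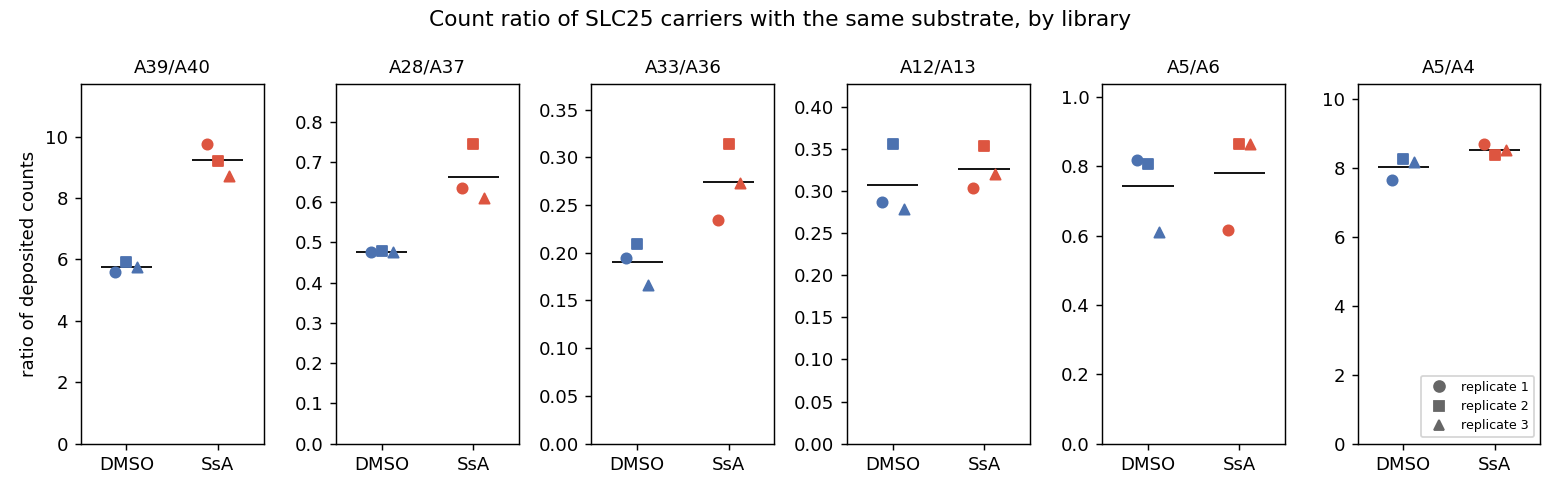
Ratio of deposited counts between carriers of the same substrate in each library (y axis from 0, linear), with the group mean as a line; marker shape is the replicate number. The ratios of SLC25A39 to SLC25A40, SLC25A28 to SLC25A37 and SLC25A33 to SLC25A36 do not overlap between groups. Nor does SLC25A5 to SLC25A4, although its log2 difference is only 0.09. SLC25A5 to SLC25A6 is low in DMSO replicate 3 and saikosaponin A replicate 1.

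The 3 uncoupling-protein-like members were not called by edgeR or DESeq2, and 0 had an unadjusted p below 0.05. SLC25A27, the member of smallest p, stood at 15.9, 14.3 and 15.4 CPM in DMSO and 11.97, 13.8 and 13.2 CPM with saikosaponin A, with all treated libraries below all controls (log2 fold change -0.23 ± 0.10, SE, edgeR adjusted p = 0.0938). SLC25A14 and SLC25A30 had 0.42 and -0.004. In the group of dynamics and unassigned function, 1 of 3 fell: SLC25A46, an outer-membrane protein of mitochondrial shape, at 55.05, 58.9 and 54.8 CPM in DMSO and 50.2, 50.4 and 48.7 CPM with saikosaponin A (log2 fold change -0.18 ± 0.06, SE, edgeR adjusted p = 0.0482). Leaving out any library but DMSO replicate 3 lost this call, with edgeR adjusted p from 0.0638 without saikosaponin A replicate 1 to 0.161 without DMSO replicate 2. SLC25A43 and SLC25A35 had -0.04 and 0.30 and were not called. SLC25A45, below the filter, stood at 1.05, 0.917 and 0.926 FPKM in DMSO and 0.625, 0.702 and 0.530 FPKM with saikosaponin A, and those groups did not overlap (chosen after its values were seen).

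Log2 fold changes were lower for longer transcripts, in the carriers as in all protein-coding genes: Spearman's rho with the longest annotated transcript was -0.47 over the 36 carriers and -0.72 over 10040 protein-coding genes, and -0.05 and -0.50 with the median coding transcript. These are descriptions over genes that share libraries. The carriers that rose had longest transcripts of 1274 to 6087 nt (median 2176) and those that fell 4823 to 6952 nt (median 5809), with 2971 nt for those not called. When each library's count was corrected for a linear trend in log2 of the longest length, 2 carriers rose and 5 fell (background 13.3% and 19.4%). SLC25A3 and SLC25A4 were the rises, at 0.96 (edgeR adjusted p = 0.00289) and 0.70 (edgeR adjusted p = 0.00477), and none of the 5 earlier falls was called. SLC25A5 went to 0.003 (edgeR adjusted p = 0.975), SLC25A6 to 0.24 (edgeR adjusted p = 0.175), SLC25A1 to -0.05 (edgeR adjusted p = 0.642), SLC25A39 to 0.20 (edgeR adjusted p = 0.0588), SLC25A36 to 0.01 (edgeR adjusted p = 0.932) and SLC25A29 to -0.44 (edgeR adjusted p = 0.0574). The 5 falls were instead SLC25A15 at -0.54 (edgeR adjusted p = 0.00891), SLC25A28 at -0.51 (edgeR adjusted p = 0.0129), SLC25A51 at -0.41 (edgeR adjusted p = 0.0337), SLC25A22 at -0.34 (edgeR adjusted p = 0.0389) and SLC25A27 at -0.34 (edgeR adjusted p = 0.0391). With the median coding length in place of the longest, 10 rose and 7 fell (background 19.9% and 23.5%), keeping 8 of the 11 rises and 4 of the 5 falls: SLC25A5 stood at 0.51 (edgeR adjusted p = 0.00411), SLC25A6 at 0.62 (edgeR adjusted p = 0.00286) and SLC25A29 at -0.73 (edgeR adjusted p = 0.00510). Under that length SLC25A3 stood at 0.51 (edgeR adjusted p = 0.0116) and SLC25A4 at 0.90 (edgeR adjusted p = 0.00202). Among the calls lost were the rises of SLC25A39, at 0.20 (edgeR adjusted p = 0.0506), and SLC25A38, at 0.18 (edgeR adjusted p = 0.145), and the fall of SLC25A44, at -0.29 (edgeR adjusted p = 0.149). SLC25A39, SLC25A38 and SLC25A44 thus passed under neither length. The median coding length was far below the longest for some carriers: 839 against 2217 nt for SLC25A39, 1351 against 6087 nt for SLC25A3. For SLC25A30 it was 582 against 6041 nt. Which length fits the transcripts present was not tested.

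**Figure D4:**
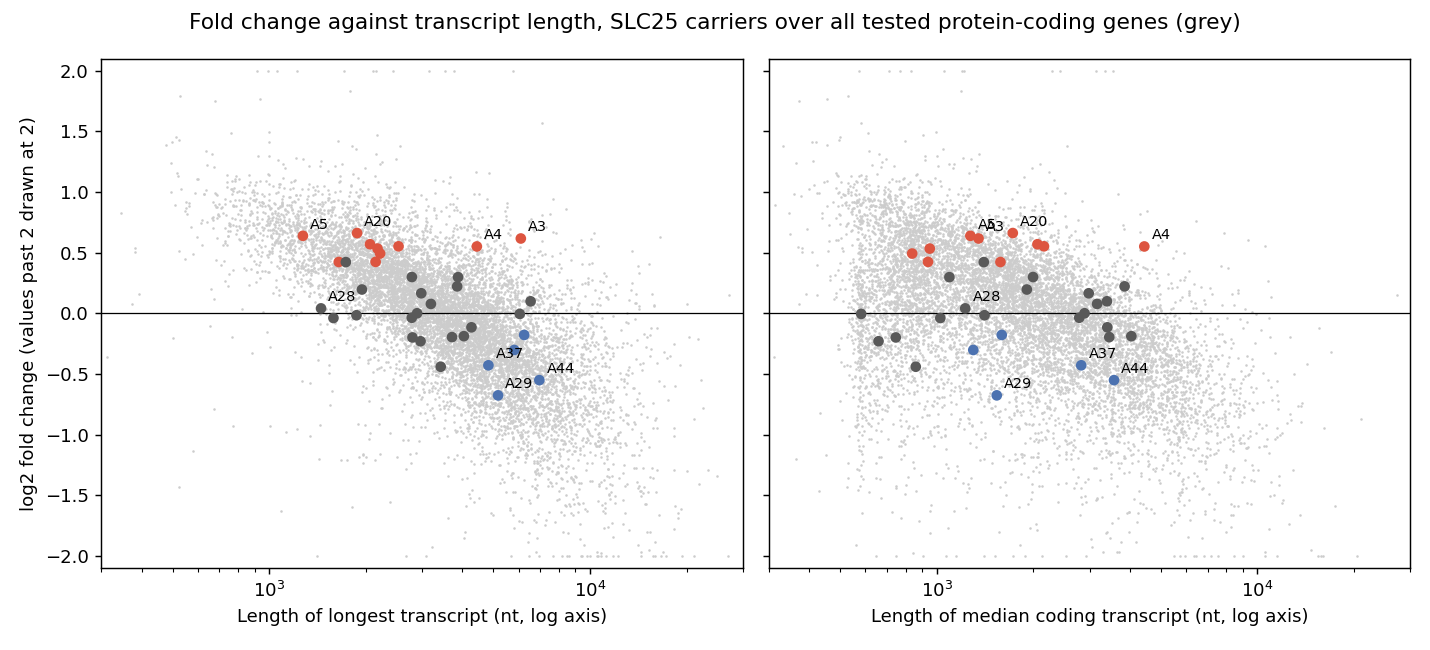
log2 fold change (y axis; values past 2 drawn at 2) against transcript length (nt, log axis) for 35 of the tested carriers over all tested protein-coding genes in grey, with the longest annotated transcript on the left and the median coding transcript on the right; red marks carriers called higher, blue called lower, dark grey not called. On the left, 8 of the 10 red carriers lie between 1274 and 2530 nt and the blue ones between 4823 and 6952 nt, with SLC25A3 and SLC25A4 the long exceptions among the red.

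Other transport genes of the mitochondrion, from lists chosen with earlier results of these data known, were counted beside the carriers and are read against the same 25.9% and 27.9%. All 3 outer-membrane channel genes rose (median 0.56; VDAC3 0.72 ± 0.09, SE, edgeR adjusted p = 0.000940, VDAC2 0.56 ± 0.08, SE, edgeR adjusted p = 0.00128 and VDAC1 0.45 ± 0.07, SE, edgeR adjusted p = 0.00158), although VDAC1 had -0.04 with quantile-normalised FPKM, and 0 of 3 passed after the length correction, by edgeR or at an unadjusted p below 0.05. Of the genes of the carrier import route, from the outer-membrane receptor TOMM70 through the small TIM chaperones to the TIM22 complex, 6 of 10 rose and 0 fell (0 also by DESeq2 or at an unadjusted p below 0.05), with a median of 0.41. The smallest p were those of the small TIM chaperone genes TIMM10 (0.99 ± 0.16, SE, edgeR adjusted p = 0.00257), TIMM8B (0.96 ± 0.16, SE, edgeR adjusted p = 0.00303) and TIMM9 (0.49 ± 0.10, SE, edgeR adjusted p = 0.00513), and 1 of the 10 rose after the length correction, under which TIMM10 and TIMM9 were at -0.03 and -0.12. Among the relatives under other names, MTCH2 (0.39 ± 0.07, SE, edgeR adjusted p = 0.00291) and MTCH1 (0.41 ± 0.12, SE, edgeR adjusted p = 0.0217) rose, and UCP2 was not called (0.13 ± 0.13, SE, edgeR adjusted p = 0.449). After the correction for the longest transcript MTCH2 was at 0.20 (edgeR adjusted p = 0.0422) and MTCH1, no longer called, at 0.07 (edgeR adjusted p = 0.596). Other inner-membrane transporters gave 4 rises and 2 falls of 13 (median 0.03), with the pyruvate carrier subunit MPC2 (0.57 ± 0.09, SE, edgeR adjusted p = 0.00188) higher and the sodium/calcium exchanger SLC8B1 (-0.40 ± 0.08, SE, edgeR adjusted p = 0.00519) and the cation exchanger LETM1 (-0.40 ± 0.09, SE, edgeR adjusted p = 0.00742) lower. Under the same correction the calls of MPC2, at 0.27 (edgeR adjusted p = 0.0296), and SLC8B1, at -0.44 (edgeR adjusted p = 0.00537), held, and that of LETM1, at -0.13 (edgeR adjusted p = 0.356), was lost. Enzymes that carriers serve gave 5 rises and 2 falls of 12 (median 0.09), among the rises the malate-aspartate shuttle genes GOT1 (0.39 ± 0.06, SE, edgeR adjusted p = 0.00142), MDH1 (0.60 ± 0.10, SE, edgeR adjusted p = 0.00305) and GOT2 (0.31 ± 0.05, SE, edgeR adjusted p = 0.00307), the last at -0.05 on the TPM scale. Corrected for the longest transcript, GOT1 was still called, at 0.27 (edgeR adjusted p = 0.00935), and MDH1, at 0.13 (edgeR adjusted p = 0.256), and GOT2, at 0.09 (edgeR adjusted p = 0.287), were not. The 2 falls were CPT2 (-0.43 ± 0.09, SE, edgeR adjusted p = 0.00825) and CPT1A (-0.22 ± 0.08, SE, edgeR adjusted p = 0.0460). After that correction CPT2 was at -0.27 (edgeR adjusted p = 0.0495) and CPT1A, no longer called, at 0.03 (edgeR adjusted p = 0.809).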

How the data were processed

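Total RNA from cells labelled HepG2 was poly(A)-selected and made into strand-marked libraries, per the labels' protocols, with 3 libraries for DMSO and 3 for saikosaponin A. The submitters' processing notes name HISAT2 2.0.4, StringTie 1.3.4d, cutadapt 1.9 and the build GRCh38. The counting step, its strand setting and the annotation release are not given in the sources used. The table held, per the file headers, 1 whole-number count and 1 FPKM value per gene and library; the authors' counts were used as deposited, and the authors' FPKM values are, by the unit the headers name, divided by gene length and library size. Column names with SA were taken for the treated libraries and the rest for DMSO.

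Genes with at least 3 libraries of FPKM 1 or more (11427 of 29435) were fitted together, with TMM scaling and edgeR 4.0.16's quasi-likelihood test in R 4.3.3, two-sided, Benjamini-Hochberg adjusted over all of them, at a threshold of 0.05. The standard error of a log2 fold change was taken from its size over the root of the F statistic. Alternatives used DESeq2 1.42.0 and limma 3.58.1. Length corrections added to each library an offset linear in log2 length, from GENCODE 29 transcripts or from the ratio of count to FPKM. Promoter windows came from RefSeq, GRCh38.p14. The method was tested on simulated data. Precision is set by 3 libraries per group, with totals of 57768359 to 74912492 counts.

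The carriers and the other lists were chosen with earlier results of these data known. Values per library are given for called carriers with an absolute log2 fold change of at least 0.58, for the smallest p in each substrate group without one, and for SLC25A3 to SLC25A6; other carriers shown per library are marked as chosen later. 1 carrier is counted but not reported here by name. Of related lists, up to 3 genes of smallest p are named, with CPT1A and CPT2 added after their values were seen.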

Additional observations from a re-analysis of the deposited data

How the results depend on the processing

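The edgeR fit called 11 carriers higher and 5 lower. In brackets after each count stand the shares of all genes called higher and lower in that fit. The 11 rises were also called by DESeq2 (11 higher, 6 lower; 29.2% and 30.0%), the added fall being SLC25A40, and without the expression filter (11 and 4 of 44 carriers; 9.95% and 10.8%). With a mean FPKM of at least 5, which left 23 carriers tested, 9 were higher and 5 lower (25.5% and 29.2%). With total-count scaling the counts were 3 higher and 8 lower (11.1% and 33.9%). With limma on log2(FPKM + 1), 2 were higher and 7 lower (8.08% and 32.4%), and with a pseudocount of 0.1, 2 and 6 (7.31% and 32.2%). On log2(TPM + 1), 0 were higher and 3 lower (0.394% and 20.8%), and with quantile normalisation, 6 and 3 (22.7% and 25.9%). The mitochondrial share as a term gave 16 higher and 8 lower (36.2% and 35.4%). Leaving out each library in turn gave 9 to 11 higher and 3 to 4 lower (17.5 to 27.6% and 22.7 to 28.4%). The cause of these shifts was not tested.

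The labels number the replicates 1 to 3 in both groups, and same-numbered libraries correlated at -0.34, 0.29 and -0.35 in their deviations from the group means, so the numbers were not taken to pair the samples. The largest correlation, 0.55, was between DMSO replicate 3 and saikosaponin A replicate 1. Their numbers differ, so a block by number does not join them. With the replicate number as a block, 10 carriers were higher and 3 lower (18.1% and 22.2%); the calls of SLC25A44 and SLC25A46 were among those lost. With the block and the length correction together, 2 were higher and 2 lower (6.87% and 10.8%).

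The length correction by the longest transcript gave 2 higher and 5 lower (13.3% and 19.4%), and that by the length implied by count and FPKM 4 higher and 3 lower (17.5% and 22.3%). Without DMSO replicate 3 and saikosaponin A replicate 1 the length correction gave 8 higher and 9 lower (21.6% and 31.9%), and the median coding length in all 6 libraries gave 10 and 7 (19.9% and 23.5%). The last 3 corrections were added after the data were seen. For the genes named, CPT1A and CPT2 apart, log2 fold changes that turned sign, with the original or the corrected value called, were as follows. The length correction gave -0.0500 for SLC25A1, 0.00925 for SLC25A36, -0.51 for SLC25A28 and 0.18 for SLC25A46, -0.0323 for TIMM10 and -0.12 for TIMM9. With the block these were -0.0488 for SLC25A1, 0.0110 for SLC25A36, -0.52 for SLC25A28 and 0.18 for SLC25A46, -0.0326 for TIMM10 and -0.11 for TIMM9. With the implied length they were -0.0526 for SLC25A1, 0.0871 for SLC25A36, -0.48 for SLC25A28 and 0.0934 for SLC25A46, -0.0406 for SLC25A6 and -0.17 for TIMM9. In the 4 libraries they were -0.0901 for SLC25A1, -0.61 for SLC25A28, 0.13 for SLC25A46, 0.38 for SLC25A30, -0.22 for SLC25A10, -0.0574 for TIMM10 and -0.0940 for TIMM9. With the median coding length it was 0.0255 for LETM1. TPM gave -0.0507 for GOT2, and quantile normalisation -0.0369 for SLC25A6, -0.0388 for VDAC1 and -0.0248 for GOT2.

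Over the 35 tested carriers shown singly and all alternatives, 530 log2 fold changes kept their direction and their side of the threshold, 92 lost a call, 39 gained one and 19 turned sign with a call on either side; another 77 turned sign with no call on either side. The biological coefficient of variation was 15.3%, and with 3 libraries per group the number of libraries limits the precision.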

Other observations

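Across the 36 tested carriers, the log2 fold change and the DMSO level had a Spearman correlation of 0.40; this describes genes that share libraries and, through FPKM, transcript length. Pseudogene entries held up to 2.99% of the counts of SLC25A24 plus its 2 pseudogene entries, the largest share in the family, and at most 1.45% for SLC25A14. SLC25A14 had 9.21, 10.00 and 5.81 CPM in DMSO and 9.92, 11.3 and 12.4 CPM with saikosaponin A, with DMSO replicate 3 the lowest, and SLC25A35 had 17.7, 16.6 and 22.98 CPM in DMSO and 31.6, 19.6 and 19.2 CPM with saikosaponin A, with saikosaponin A replicate 1 the highest; neither was called. Both genes were named after their values were seen.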
